A study of Saccharomyces cerevisiae with 21 samples.

Results

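The cytosolic ribosomal proteins are the proteins that, with ribosomal RNA, make up the translating ribosomes of the yeast cytoplasm. Their genes were taken by symbol: RPL or RPS with a number and an optional A or B, together with RPP0, RPP1A, RPP1B, RPP2A, RPP2B and ASC1. This gave 124 of the 5408 genes that had a probe, 72 of the large subunit and 52 of the small subunit. Of 138 symbols in the RefSeq gene table that match the rule, 14 were not analysed here.

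Saccharomyces cerevisiae S288C, a haploid laboratory strain of budding yeast, was exposed to 4 radiations, and each irradiated culture was compared with an unirradiated control on 3 arrays. Exposed cells received fast neutrons at 20.3 Gy (of 21.4 Gy in all), thermal neutrons at 20.8 Gy, carbon ions at 25 Gy and 290 MeV/u, or gamma rays at 17 Gy. In the thermal neutron group thermal neutrons gave only 1.0 to 2.0 of the 17 mGy/min. Cells sat cold in 0.9% saline during exposure, in 2 ml for fast neutrons, thermal neutrons and gamma rays and in 5 ml for carbon ions. Both channels of an array then had 40 min of growth in 50 ml of fresh rich medium at 25 C. Controls waited as long as the exposed cells: 19 h for fast neutrons, 20 h for thermal neutrons, 10 min for carbon ions and 20.5 h for gamma rays. By the labels, fast and thermal neutron exposures used cuvettes while their controls were in tissue culture flasks, so vessel and irradiation cannot be told apart there. Exposure and control shared cuvettes for gamma rays and flasks for carbon ions.

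Ribosomal proteins are made in equal amounts and mostly begin to assemble with ribosomal RNA in the nucleolus, though some join later in the cytoplasm. Their messages are among the most abundant in growing yeast. Most ribosomal proteins are encoded by a pair of near-identical genes, named A and B, that arose in an ancient duplication of the genome. Transcription depends on RAP1, FHL1, IFH1 and SFP1, is driven by the TOR and protein kinase A pathways when nutrients are rich, and is shut down in many stresses.

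Each value is a log2 ratio of irradiated over control RNA on 1 array, so 0 is no difference, and levels of different genes cannot be compared. Means are over 3 arrays ± SD (n = 3). A gene was called higher or lower where limma gave an adjusted p under 0.05, with Benjamini-Hochberg adjustment over all genes tested. In these bulk cultures, fewer cells of a kind and less RNA per cell cannot be told apart. HUG1, RNR2 and RNR4, which respond to DNA damage, passed as higher after all 4 radiations, with means from 1.32 to 3.11. One column stood apart in its median over all probes, at 0.13: the scan of replicate 2 of fast neutrons taken at high laser power. The count after fast neutrons is therefore given with and without that array. Scans at high and low power correlated over all probes at 0.693 on that array and at 0.698 on carbon ion replicate 3. On the other arrays scanned at both powers the correlation was 0.845 to 0.962. Labels state no separate meaning for the replicate numbers, and samples were collected independently.

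Over the whole family the ratios lay above 0 after fast neutrons, thermal neutrons and carbon ions and below 0 after gamma rays. The median of the members was 0.43, 0.19 and 0.16 on the 3 fast neutron arrays, and 0.10, 0.14 and 0.15 on the thermal neutron arrays. It was 0.25, 0.28 and 0.19 on the carbon ion arrays, and -0.23, -0.10 and -0.27 on the gamma ray arrays. No gamma ray array overlapped with any array of the other radiations in this median. The median of all other genes lay between -0.05 and 0.05 on every array. On the carbon ion arrays 99, 93 and 97 of 124 members were above 0, and on the gamma ray arrays 24, 46 and 35 were.

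**Figure D1:**
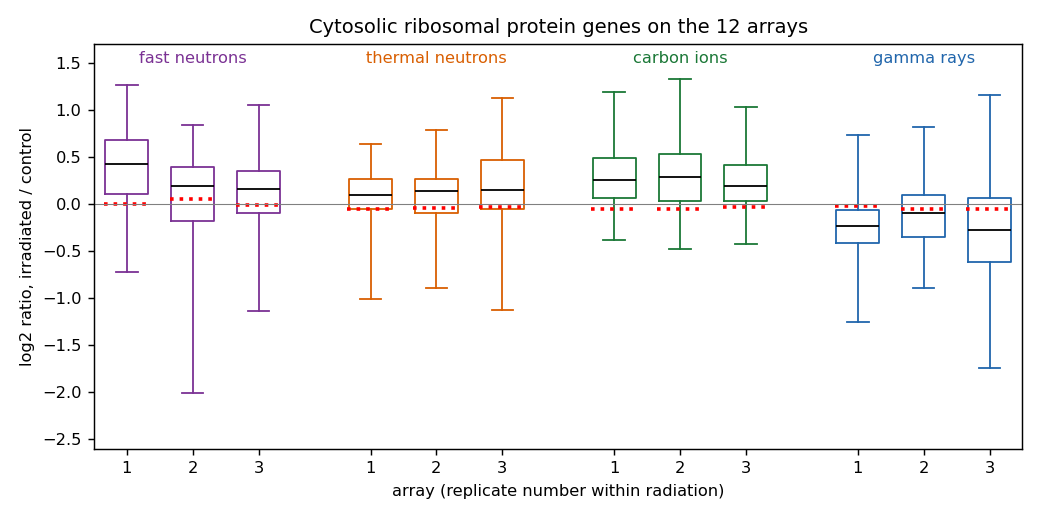
Log2 ratio of irradiated over control RNA (vertical axis) of the cytosolic ribosomal protein genes on each of the 12 arrays, grouped by radiation. Boxes span the middle quartiles with the median as a black line, whiskers reach the lowest and highest member, and red dotted lines mark the median of all other genes. The black lines are above the red ones on the 9 arrays of fast neutrons, thermal neutrons and carbon ions and below them on the 3 gamma ray arrays.

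After fast neutrons 15 of 122 members tested were higher and 2 lower, where 6.16% of all 4936 genes tested were higher and 6.6% lower. RPL2A had no probe on that array type, and RPL26A had a value on 2 of its 3 arrays, so neither was tested. RPL38 (YLR325C), a small protein of the large subunit, read 1.27, 0.69 and 0.70 on the 3 arrays, a mean of 0.88 ± 0.33 or 1.85-fold (limma adjusted p = 0.022). RPL20A (YMR242C), of the large subunit, read 0.83, 0.62 and 0.86 (0.77 ± 0.13, adjusted p = 0.021). RPS10A (YOR293W), of the beak of the small subunit, read 1.07, 0.76 and 0.26 (0.70 ± 0.41, adjusted p = 0.047). All 3 were above 0 on every fast neutron array.

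The 2 lower members belong to the large subunit. RPP2A (YOL039W), an acidic protein of the ribosomal stalk, read -0.55, -1.03 and -1.14 (-0.90 ± 0.31, adjusted p = 0.02). RPL4B (YDR012W), whose protein lines the exit tunnel, read -0.40, -1.45 and -0.68 (-0.84 ± 0.54, adjusted p = 0.042). On replicate 2 the high-power scan alone gave RPL4B -2.14 and the low-power scan -0.75. The lowest single value of any member on any array was RPS11A, of the small subunit, at -2.01 on the same replicate, and RPS11A did not pass. Without replicate 2, 47 members were higher and 9 lower, while without replicate 1 or without replicate 3 limma called none, with 8 higher and 6 lower and 33 higher and 4 lower at an unadjusted p under 0.05. No member passed after fast neutrons under all 10 alternatives run.

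Thermal neutrons gave 25 higher (20.2%) and 8 lower (6.45%) of 124 members, where 19.9% of the 5301 genes tested were higher and 21.2% lower. The share of members called higher was thus near that of all genes, and the share called lower was below it. RPL31A (YDL075W), at the rim of the exit tunnel, read 0.64, 0.63 and 1.05 (0.77 ± 0.24, 1.71-fold, adjusted p = 0.0014). RPS29B (YDL061C), a zinc-binding protein of the small subunit head, read 0.63, 0.58 and 0.96 (0.72 ± 0.20, adjusted p = 0.0027). RPL37A (YLR185W), a zinc-binding protein of the large subunit, read 0.44, 0.51 and 1.13 (0.69 ± 0.38, adjusted p = 0.0046). Replicate 3 was the highest array for each of them.

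The members that fell after thermal neutrons were ASC1, RPL1A, RPL3, RPL4A, RPL4B, RPP0, RPS0B and RPS2. ASC1 (YMR116C), the yeast RACK1, a signalling scaffold on the head of the small subunit, read -1.0, -0.85 and -1.12 (-0.99 ± 0.14, 1.99-fold lower, adjusted p = 0.0013). The 2 copies of RPL4 moved alike: RPL4B read -0.60, -0.89 and -0.79 (-0.76 ± 0.15, adjusted p = 4.1e-04). RPL4A (YBR031W) read -0.70, -0.58 and -0.78 (-0.69 ± 0.10, adjusted p = 6.4e-04). All 3 genes were below 0 on every thermal neutron array, and RPL4A, RPL4B and ASC1 were also below 0 on every carbon ion array without passing there (-0.31 ± 0.05, -0.33 ± 0.13 and -0.22 ± 0.03). RPP0 (YLR340W), the base of the stalk, read -0.31, -0.81 and -0.41 (-0.51 ± 0.26, adjusted p = 0.027). Without thermal neutron replicate 2, 12 members were higher and 3 lower, and without replicate 3, 10 and 4.

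Carbon ions raised 33 of 124 members and limma called none lower (2 lower and 57 higher at an unadjusted p under 0.05), where 9.72% of the 5095 genes tested were higher and 12% lower. RPS26A (YGL189C), which contacts the mRNA near the channel exit, read 1.19, 0.88 and 1.03 (1.03 ± 0.16, 2.05-fold, adjusted p = 0.0013). RPL25 (YOL127W), the docking site at the tunnel exit for factors that meet new chains, read 1.13, 0.74 and 0.86 (0.91 ± 0.20, adjusted p = 0.0012). RPL36B (YPL249C-A), of the large subunit, read 1.02, 0.88 and 0.66 (0.85 ± 0.18, adjusted p = 0.0017). Each of these 9 values was above every value of the same gene on the gamma ray arrays. The lowest means over the 3 carbon ion arrays belonged to RPL4B and RPL4A. Without carbon ion replicate 1 the count was 11, and without replicate 2 it was 18.

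After gamma rays 40 of 124 members fell and 1 rose, where 22.4% of the 4891 genes tested were lower and 17.6% higher. RPL22A (YLR061W), of the large subunit, read -0.99, -0.89 and -1.04 (-0.97 ± 0.07, 1.97-fold lower, adjusted p = 7.1e-05). RPS1B (YML063W), of the small subunit platform near the mRNA exit, read -0.40, -0.60 and -1.64 (-0.88 ± 0.67, adjusted p = 0.0044). RPS3 (YNL178W), at the mRNA entry, read -0.34, -0.50 and -1.74 (-0.86 ± 0.76, adjusted p = 0.0082). The last 2 rest largely on replicate 3, where they were the lowest members of all, while RPL22A was near -1 on every array. On the arrays of the other 3 radiations RPL22A lay between -0.0017 and 0.33 and passed in none. RPS1A (YLR441C), the other copy of RPS1, read -0.87, -0.66 and -0.81 (-0.78 ± 0.10, adjusted p = 5.6e-04), close together on the 3 arrays. Without gamma ray replicate 3, 22 members were lower and 1 higher.

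RPS29B was the member that rose after gamma rays, at 0.74, 0.82 and 1.16 (0.90 ± 0.22, 1.87-fold, adjusted p = 7.7e-04). It was also the only member called higher after all 4 radiations, with 0.84, 0.84 and 0.31 on the fast neutron arrays (0.66 ± 0.30, adjusted p = 0.041) and 0.84, 1.06 and 0.44 on the carbon ion arrays (0.78 ± 0.31, adjusted p = 0.0047). All 12 arrays were above 0 for this gene, and the ranges of the 4 radiations overlapped. No dyes were swapped, so a dye effect of RPS29B cannot be told apart from a response to all 4 radiations. The differences between radiations of the same table did not pass: thermal neutrons minus gamma rays was -0.18 (95% interval -0.63 to 0.27), and carbon ions minus gamma rays was -0.12 (-0.57 to 0.33).

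**Figure D2:**
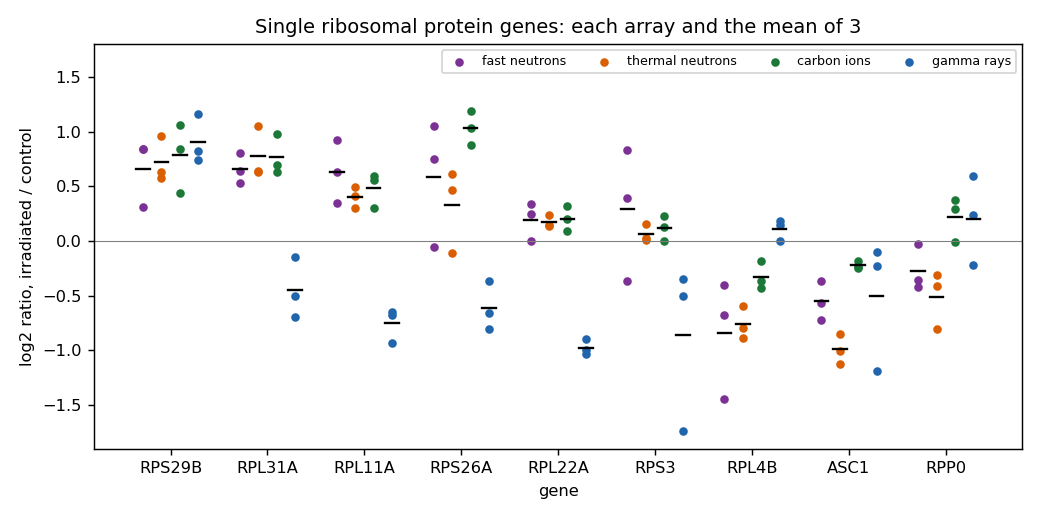
Log2 ratio of irradiated over control RNA (vertical axis) of 9 ribosomal protein genes, with 1 point for each array and a black bar at the mean of the 3 arrays of a radiation. RPS29B is above 0 on all 12 arrays, RPL22A and RPL11A are below 0 on the 3 gamma ray arrays, and ASC1 and RPL4B have their thermal neutron points below their carbon ion points.

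Of the 124 members 46 were called after none of the 4 radiations, and no member was called lower after all 4. The shares of all genes with these outcomes were not counted. Both directions occurred in the same gene: 7 members fell after gamma rays and rose after thermal neutrons and carbon ions, namely RPL11A, RPL11B, RPL27A, RPL31A, RPL35A, RPS10A and RPS19A. RPL11A, RPL31A, RPS10A and RPS19A also rose after fast neutrons. The share of all genes with this pattern was not counted either. The 7 were picked by their opposite calls, so the separation of their arrays given below is no further evidence. Among the 7, the gamma ray call held under all alternatives run for RPL11A, RPL27A and RPL35A. The thermal neutron call held for RPL27A and RPL31A, and the carbon ion call for RPL31A. RPL11A (YPR102C), which binds the 5S RNA with RPL5, read 0.92, 0.35 and 0.63 after fast neutrons and 0.30, 0.41 and 0.49 after thermal neutrons. It read 0.60, 0.30 and 0.56 after carbon ions and -0.68, -0.65 and -0.93 after gamma rays. The gamma ray arrays stood wholly below the other 9, with a mean of -0.75 ± 0.16 (adjusted p = 5.9e-04).

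RPL31A read 0.64, 0.81 and 0.53 after fast neutrons and 0.69, 0.98 and 0.63 after carbon ions, against -0.15, -0.50 and -0.69 after gamma rays. RPS19A (YOL121C), a protein of the small subunit head needed for its maturation, read 0.71, 0.64 and 0.34 after fast neutrons and 0.29, 0.44 and 0.91 after thermal neutrons. It read 0.58, 0.53 and 0.46 after carbon ions and -0.42, -0.35 and -0.40 after gamma rays. In both genes the 9 arrays of the other radiations were above 0 and the 3 gamma ray arrays below. RPS10A read 0.23, 0.33 and 0.98 after thermal neutrons and 0.76, 0.57 and 0.44 after carbon ions, against -0.62, -0.30 and -0.31 after gamma rays, where its adjusted p was 0.0498.

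RPL27A (YHR010W), of the large subunit, read 0.42, 0.79 and 0.52 after thermal neutrons and 0.35, 0.54 and 0.47 after carbon ions, against -0.38, -0.86 and -0.68 after gamma rays. RPL35A (YDL191W), at the tunnel exit, read 0.11, 0.29 and 0.68 after thermal neutrons and 0.54, 0.63 and 0.52 after carbon ions, against -0.51, -0.62 and -0.76 after gamma rays. RPL11B (YGR085C) read 0.32, 0.45 and 0.50 after thermal neutrons and 0.84, 0.28 and 0.66 after carbon ions, against -0.19, -0.50 and -0.71 after gamma rays. None of these genes had a gamma ray array that reached any thermal neutron or carbon ion array. After fast neutrons RPL27A, RPL35A and RPL11B averaged 0.56 ± 0.30, 0.40 ± 0.22 and 0.59 ± 0.31 and did not pass.

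Differences between radiations were tested directly among thermal neutrons, carbon ions and gamma rays, which share an array type. A dye effect of a gene cancels in such a difference. Waiting time, facility, dose, vessel, saline volume and scanning differ with the radiation and cannot be told apart from it. Gamma ray values come from a single scan, while those of thermal neutrons and carbon ions average the high-power and low-power scans. The differences from gamma rays use the same 3 gamma ray arrays, so their results are not independent of each other. Fast neutrons, on another array type, were not tested against the rest.

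Thermal neutrons minus gamma rays was higher in 45 members and lower in 4, where 20.4% of the 4843 genes tested were higher and 17.8% lower, 38.2% in all. The median difference over the members was 0.35, and over all genes tested 0.03. RPS23A (YGR118W), at the decoding site, differed by 1.23 ± 0.19 (SE, 2.35-fold, adjusted p = 5.4e-04), with 0.30, 0.49 and 0.86 after thermal neutrons and -0.73, -0.52 and -0.81 after gamma rays. RPL31A differed by 1.22 ± 0.20 (adjusted p = 8.1e-04), and RPL27A by 1.22 ± 0.18 (adjusted p = 4.5e-04). The 3 thermal neutron arrays were above the 3 gamma ray arrays in each.

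The 4 lower members were RPL4A, RPL4B, RPP0 and RPP2A. RPL4B differed by -0.87 ± 0.16 (SE, adjusted p = 0.0017), with gamma ray values of 0.18, 0.14 and -0.0044. RPL4A differed by -0.76 ± 0.15 (adjusted p = 0.0029), with gamma ray values of -0.08, 0.09 and 0.21. For both copies the thermal neutron arrays were wholly below the gamma ray arrays. RPP0 differed by -0.71 ± 0.23 (adjusted p = 0.03) between -0.31, -0.81 and -0.41 after thermal neutrons and -0.22, 0.23 and 0.60 after gamma rays, with no overlap. Its call ended with the high-power scans alone (adjusted p = 0.062) and with the replicate number as a block (0.051). It also ended without gamma ray replicate 2 (0.075) or 3 (0.12), and without thermal neutron replicate 2 (0.12) or 3 (0.0502).

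Carbon ions minus gamma rays was higher in 55 members and limma called none lower (65 higher and 2 lower at an unadjusted p under 0.05), where 11.5% of the 4750 genes tested were higher and 9.37% lower, 20.9% in all. The median difference was 0.48 over the members and 0.01 over all genes tested. RPS26A differed by 1.64 ± 0.21 (SE, 3.12-fold, adjusted p = 0.001), with -0.37, -0.66 and -0.80 after gamma rays. RPL36B differed by 1.27 ± 0.19 (adjusted p = 0.0018), with -0.51, -0.40 and -0.35 after gamma rays. RPL11A differed by 1.24 ± 0.16 (adjusted p = 0.001). RPL25 differed by 0.96 ± 0.19 (adjusted p = 0.0057), although after gamma rays alone it was near 0, at 0.11, -0.0035 and -0.25. Without gamma ray replicate 3, 31 members passed, and without carbon ion replicate 1, 33 did.

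Both differences from gamma rays were higher in 41 members, and the share of all genes higher in both was not counted. RPL22A was one of the 41 members, by 1.15 ± 0.15 for thermal neutrons (SE, adjusted p = 2.2e-04) and 1.18 ± 0.15 for carbon ions (adjusted p = 0.001), although it passed after neither radiation by itself.

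Thermal neutrons minus carbon ions was lower in 2 members and higher in none by limma (14 lower and 3 higher at an unadjusted p under 0.05), where 4.41% of the 5033 genes tested were lower and 5.82% higher, 10.2% in all. RPS25A (YGR027C), of the small subunit head, read 0.08, -0.02 and 0.24 after thermal neutrons and 0.57, 0.89 and 0.88 after carbon ions, a difference of -0.68 ± 0.16 (SE, adjusted p = 0.026). RPS21A (YKR057W), of the small subunit, read -0.18, -0.49 and -0.18 after thermal neutrons and 0.28, 0.57 and 0.36 after carbon ions, also a difference of -0.68 (SE 0.19, adjusted p = 0.042). The arrays of the 2 radiations did not overlap for either gene. RPS25A did not pass without thermal neutron replicate 1 or 2 or carbon ion replicate 2 or 3 (adjusted p from 0.055 to 0.11). RPS21A did not pass without any 1 of the 6 arrays (0.06 to 0.16), with the high-power scans alone (0.095) or with the replicate number as a block (0.073). For genes that rose after both radiations the interval of the difference was still wide: RPL31A differed by 0.0072 with a 95% interval from -0.43 to 0.44.

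**Figure D3:**
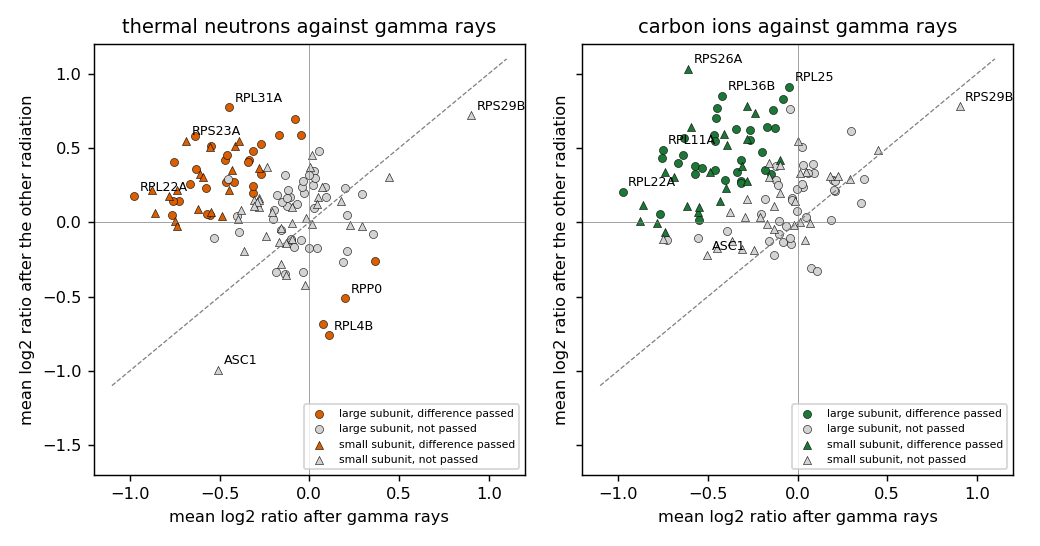
Mean log2 ratio of each member after thermal neutrons (left) or carbon ions (right) on the vertical axis, against its mean after gamma rays on the horizontal axis. Coloured points are members whose difference between the 2 radiations passed, circles are large subunit and triangles small subunit members, and the dashed line marks equal ratios. Coloured points lie above the line, except the 4 members RPL4A, RPL4B, RPP0 and RPP2A in the left panel.

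Across members, means after different radiations correlated with Pearson r = 0.70 for fast and thermal neutrons, 0.65 for fast neutrons and carbon ions and 0.64 for thermal neutrons and carbon ions. Against gamma rays r was -0.20 for fast neutrons, -0.18 for thermal neutrons and 0.03 for carbon ions. Over all other genes the same 6 values were 0.51, 0.60, 0.51, 0.19, 0.06 and 0.44. These are descriptions across genes that share dye orientation and array type, and genes are not independent replicates.

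The members were then read by place in the ribosome, in groups drawn up with the results known. At the rim of the exit tunnel, where new chains leave and chaperones dock, 12 members had a probe (RPL17, RPL19, RPL25, RPL26, RPL31, RPL35 and RPL39). Of these, 2 of 11 tested rose after fast neutrons, 5 after thermal neutrons and 6 after carbon ions. After gamma rays 4 fell, and there was no call in the other direction. That absence depends on the grouping, since RPL4A and RPL4B, whose protein lines the exit tunnel, were placed in the next group. Both RPL4 copies fell after thermal neutrons, and RPL4B also fell after fast neutrons. Over all genes tested 6.16%, 19.9% and 9.72% were higher after fast neutrons, thermal neutrons and carbon ions, and 22.4% lower after gamma rays. The gamma ray count of 4 in 12 was thus close to that of the whole family, 40 in 124. These shares are also the background for the small groups that follow. Their medians were 0.40, 0.27, 0.39 and -0.24 in the same order, against 0.25, 0.15, 0.28 and -0.18 over all members. RPL19A (YBR084C-A) read 0.57, 0.63 and 0.39 after thermal neutrons and 0.71, 0.47 and 0.49 after carbon ions, against -0.17, -0.21 and -0.42 after gamma rays. It rose after thermal neutrons and carbon ions (adjusted p = 0.0038 and 0.0073) and did not pass after gamma rays (adjusted p = 0.081). RPL39 (YJL189W), a very short protein in the tunnel wall, fell after gamma rays, at -0.82, -0.49 and -0.98 (-0.76 ± 0.25, adjusted p = 9.1e-04), and averaged 0.05 ± 0.05 after thermal neutrons.

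Around the peptidyl transferase centre, where the peptide bond is made, 7 members had a probe: RPL2A, RPL2B, RPL3, RPL4A, RPL4B, RPL10 and RPL28. No member of this group rose after fast neutrons or carbon ions by limma (at an unadjusted p under 0.05, 1 did after fast neutrons and 0 after carbon ions). After thermal neutrons RPL3 (YOR063W), which reaches into the centre, read -0.35, -0.14 and -0.50 (-0.33 ± 0.18, adjusted p = 0.047). RPL10 (YLR075W), which joins the large subunit last, in the cytoplasm, went the other way, at 0.42, 0.66 and 0.48 (0.52 ± 0.12, adjusted p = 0.0061), against -0.41, -0.43 and -0.81 after gamma rays (-0.55 ± 0.22, adjusted p = 0.0043). RPL10 averaged -0.08 ± 0.23 after fast neutrons and 0.02 ± 0.11 after carbon ions. RPL28 (YGL103W) fell after gamma rays to -0.55 ± 0.10 (adjusted p = 0.0028). The pair RPL2A and RPL2B was called after no radiation.

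The stalk recruits the elongation factors, and its 6 members here are RPP0, RPP1A, RPP1B, RPP2A, RPP2B and RPL12B. Carbon ions and gamma rays gave no call among them by limma (at an unadjusted p under 0.05, 0 after carbon ions and 1 higher after gamma rays). Their median after gamma rays was 0.21, on the other side of 0 from the family median of -0.18. RPP2A averaged -0.90 ± 0.31 after fast neutrons, -0.26 ± 0.19 after thermal neutrons, 0.29 ± 0.16 after carbon ions and 0.37 ± 0.35 after gamma rays. Its thermal neutron arrays, at -0.11, -0.20 and -0.48, lay below its gamma ray arrays, at 0.05, 0.31 and 0.74 (difference -0.63 ± 0.20 SE, adjusted p = 0.029). RPP0 averaged -0.27 ± 0.21 after fast neutrons, 0.22 ± 0.20 after carbon ions and 0.20 ± 0.41 after gamma rays, and did not pass there.

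In the small subunit, RPS23A, RPS23B, RPS31 and RPS15 lie at the decoding site, and 3 of the 4 fell after gamma rays. RPS31 (YLR167W), made as a fusion with ubiquitin, read -0.83, -0.49 and -0.90 (-0.74 ± 0.22, adjusted p = 0.0035). RPS15 (YOL040C) was the exception, at 0.20, 0.26 and 0.22 (0.23 ± 0.03), and did not pass. RPS23B (YPR132W) read 0.38, 0.73 and 0.40 after thermal neutrons and -0.63, -0.35 and -0.68 after gamma rays, close to its copy RPS23A.

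Along the path of the mRNA, RPS2, RPS3 and RPS30B lie at the entry. RPS30B (YOR182C), made as a fusion with a ubiquitin-like protein, rose after carbon ions, at 0.53, 0.82 and 0.57 (0.64 ± 0.16, adjusted p = 0.013), and fell after gamma rays, at -0.67, -0.30 and -0.82 (-0.59 ± 0.27, adjusted p = 0.0088). RPS2 (YGL123W) fell after thermal neutrons, at -0.43, -0.48 and -0.35 (-0.42 ± 0.06, adjusted p = 0.024), and averaged -0.02 ± 0.10 after carbon ions and -0.02 ± 0.32 after gamma rays. At the exit, RPS26A and RPS26B (YER131W) both rose after carbon ions, RPS26B with 1.02, 0.37 and 0.82 (0.74 ± 0.33, adjusted p = 0.016), while RPS28A, RPS28B and RPS14B were called after no radiation. RPS1A and RPS1B, whose protein is also near the exit, were not put in this group. They averaged -0.0056 and 0.0084 after carbon ions, and both fell after gamma rays.

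ASC1 was below 0 on all 12 arrays, where a dye effect cannot be told apart from a response because no dyes were swapped. It read -0.72, -0.37 and -0.57 after fast neutrons (-0.55 ± 0.18, adjusted p = 0.0502), and -0.24, -0.24 and -0.18 after carbon ions (adjusted p = 0.39). After gamma rays it read -1.19, -0.23 and -0.10 (-0.51 ± 0.59, adjusted p = 0.041), with replicate 1 far below the others. Thermal neutrons minus carbon ions was -0.77 ± 0.25 (SE, adjusted p = 0.079) and did not pass although the arrays did not overlap.

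On every array the medians of the large and the small subunit members had the same sign, while single members lay on both sides of 0. The median of the large subunit was above that of the small subunit on 11 of 12 arrays, the exception being fast neutrons replicate 1, at -0.03. The difference of medians averaged 0.04 ± 0.08 after fast neutrons, 0.08 ± 0.03 after thermal neutrons, 0.08 ± 0.07 after carbon ions and 0.14 ± 0.07 after gamma rays (SD, n = 3 each). After gamma rays the 3 arrays gave 0.07, 0.13 and 0.21. These differences are small beside the spread among members, whose middle quartiles on gamma ray replicate 1 ran from -0.42 to -0.06. Calls after carbon ions numbered 23 of 72 large (31.9%) and 10 of 52 small subunit members (19.2%), all higher, where 9.72% of all genes tested were higher. After gamma rays 20 of 72 large (27.8%) and 20 of 52 small subunit members (38.5%) fell, against 22.4% of all genes. After thermal neutrons 17 of 72 large (23.6%) and 8 of 52 small subunit members (15.4%) rose, against 19.9% of all genes. There 5 large (6.94%) and 3 small subunit members (5.77%) fell, against 21.2%. After fast neutrons 8 of 70 large (11.4%) and 7 of 52 small subunit members (13.5%) rose, against 6.16%.

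For 48 families both the A and the B copy had a probe, 46 of them with values on all 3 fast neutron arrays. Another 10 members were copies without their partner, and 18 had no letter. Copies of 1 family gave closer ratios than members of different families. The median size of A minus B was 0.13 after fast neutrons, 0.14 after thermal neutrons, 0.13 after carbon ions and 0.14 after gamma rays, against 0.33, 0.25, 0.28 and 0.31 for pairs of members of different families. Whether the probes tell the copies of a family apart is not given in the sources used here, so the closeness may hold shared signal as well, which was not tested. No family had 1 copy called higher and the other lower after the same radiation.

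A minus B kept 1 sign on all 3 arrays in 13 of 46 families after fast neutrons (28.3%) and in 22 of 48 (45.8%) after thermal neutrons, carbon ions and gamma rays alike. Over all pairs of genes tested, 55.3%, 68.4%, 55.6% and 65.4% did so. RPS29 had the widest gap of any family: A minus B was -1.14, -0.67 and -1.75 after gamma rays (-1.19 ± 0.54). RPS29A (YLR388W) read -0.41, 0.15 and -0.59 there, so the copies differed on every gamma ray array. The gap was -0.25, -0.44 and -1.04 after thermal neutrons (-0.57 ± 0.41) and -0.20, -0.25 and -0.30 after fast neutrons (-0.25 ± 0.05). After carbon ions it changed sign between arrays (-0.48, 0.07 and -0.26).

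Next after gamma rays came RPS27 and RPL9, both with the A copy below the B copy. A minus B was -0.34, -0.78 and -1.40 for RPS27 (-0.84 ± 0.53), of the small subunit, and -1.54, -0.32 and -0.58 for RPL9 (-0.81 ± 0.64), near the base of the stalk. RPS27A and RPL9A fell after gamma rays (-0.55 ± 0.37, adjusted p = 0.011, and -0.76 ± 0.50, adjusted p = 0.0058), while RPS27B and RPL9B averaged 0.29 ± 0.24 and 0.06 ± 0.23 and did not pass. RPL27 had a gap of the same kind, at -0.37, -1.05 and -0.40, and there the sign turned: A minus B was 0.12, 0.46 and 0.32 after thermal neutrons and 0.11, 0.33 and 0.48 after carbon ions.

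After thermal neutrons RPS21 had the widest gap, with A minus B of -0.54, -0.93 and -0.75 (-0.74 ± 0.20). RPS21B rose (0.46 ± 0.10, adjusted p = 0.013), while RPS21A averaged -0.28 ± 0.18. After fast neutrons the widest was RPP2, at -0.61, -1.47 and -0.82 (-0.97 ± 0.45), against 0.63, 0.36 and 0.43 after gamma rays. The A copy of RPP2 was thus below the B copy on the fast neutron arrays and above it on the gamma ray arrays. After carbon ions gaps were smaller, the widest being RPS28, at 0.22, 0.87 and 0.37 (0.49 ± 0.34), RPL42, at -0.47, -0.42 and -0.52 (-0.47 ± 0.05), and RPL36, at -0.21, -0.99 and -0.16 (-0.45 ± 0.46). In RPL42, of the large subunit, the B copy was the higher on every fast neutron and thermal neutron array as well, with A minus B of -0.32 ± 0.13 and -0.31 ± 0.28. The other gaps named by the rule were RPL37 after thermal neutrons, at 0.20, 0.38 and 0.55 (0.38 ± 0.17), and 2 after fast neutrons. Those were RPL4, at 0.14, 1.52 and 0.07 (0.58 ± 0.81), and RPS0, at 0.71, 0.03 and 0.70 (0.48 ± 0.39). The RPL4 gap rests largely on replicate 2, whose high-power scan stood apart.

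**Figure D4:**
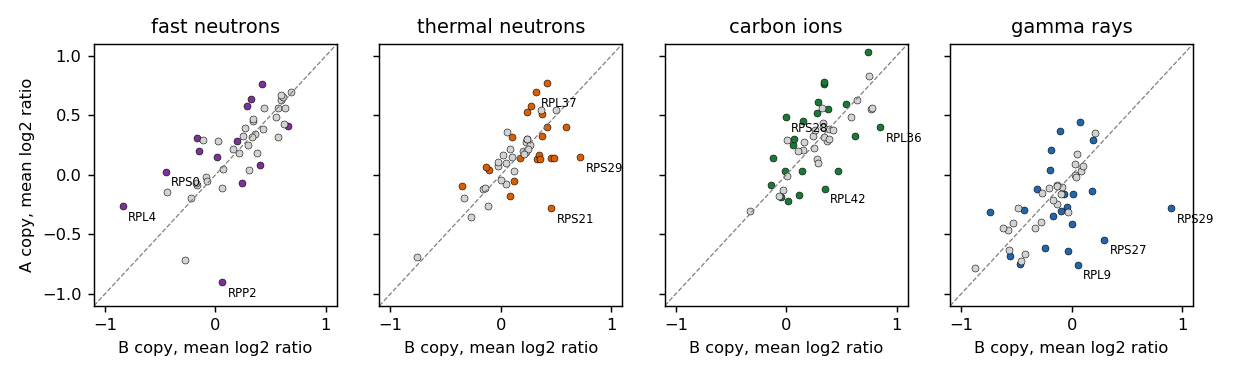
Mean log2 ratio of the A copy (vertical axis) against the B copy (horizontal axis) of each family with both copies measured, 46 families after fast neutrons and 48 after each other radiation. Coloured points are families whose A minus B had 1 sign on all 3 arrays, the 3 widest of them are named, and the dashed line marks equal ratios. Most families lie near the line, and RPS29, RPS27 and RPL9 lie farthest from it after gamma rays.

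Over the 9 arrays scanned at both laser powers, 45 member values came from the low-power scan only and 10 from the high-power scan only, while for other probes these counts were 462 and 4169. RPL4A had no high-power value on 7 of the 9 arrays, RPL4B on 5, RPL2B and RPL5 on 4 and RPP0 on 3. Of the 8 members that fell after thermal neutrons, RPL4A and RPL4B lacked a high-power value on at least 1 thermal neutron array. RPP0 and RPS2 lacked such values only on carbon ion arrays and had both scans on every thermal neutron array. Of the 25 members that rose, only RPL8A lacked a high-power value on a thermal neutron array. The part of this in the result was not tested. ASC1 had both scans on every thermal neutron array and read -0.98, -0.84 and -1.07 at high power and -1.03, -0.86 and -1.17 at low power after thermal neutrons. The family median differed between scans by -0.01 to 0.09 on the 6 thermal neutron and carbon ion arrays (high minus low, per gene).

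Other genes of the pathway were read from lists. Among regulators of ribosomal protein gene transcription, 1 of 15 rose and 2 fell after fast neutrons, 1 of 16 rose and 6 fell after thermal neutrons, 7 of 15 fell after carbon ions and 3 of 15 after gamma rays. Over all genes tested 6.6%, 21.2%, 12% and 22.4% were lower after the 4 radiations in that order, so the count after gamma rays was near the background. RAP1 (YNL216W), which binds most ribosomal protein promoters, was at -0.47 ± 0.18 after fast neutrons (adjusted p = 0.072). It passed as lower, at -0.60 ± 0.09, after thermal neutrons (adjusted p = 0.0018), -0.82 ± 0.15 after carbon ions (adjusted p = 9.1e-04) and -0.57 ± 0.14 after gamma rays (adjusted p = 0.0026). RAP1 was below 0 on all 12 arrays, where a dye effect cannot be told apart from a response because no dyes were swapped. No difference between radiations passed for RAP1 by limma (adjusted p = 0.90 for thermal neutrons minus gamma rays, 0.28 for carbon ions minus gamma rays and 0.39 for thermal neutrons minus carbon ions). FHL1 (YPR104C), which recruits the coactivator IFH1, fell after thermal neutrons (-0.79 ± 0.09, adjusted p = 0.0032) and carbon ions (-0.53 ± 0.48, adjusted p = 0.042) and was at 0.02 ± 0.23 after gamma rays. SFP1 (YLR403W), an activator under TOR control, fell after thermal neutrons and carbon ions (-0.47 ± 0.30 and -0.51 ± 0.12) and was at 0.09 ± 0.22 after gamma rays. LST8 (YNL006W), a subunit of the TOR complexes, rose after thermal neutrons (0.72 ± 0.17, adjusted p = 0.0043) and fell after carbon ions (-0.66 ± 0.37, adjusted p = 0.014) and gamma rays (-0.73 ± 0.30, adjusted p = 0.0041). ABF1 (YKL112W), a general regulatory factor, fell after carbon ions (-0.81 ± 0.45, adjusted p = 0.0064) and gamma rays (-0.85 ± 0.23, adjusted p = 0.002). After thermal neutrons ABF1 averaged 0.37 ± 0.12 and did not pass (adjusted p = 0.091). Its difference of thermal neutrons minus gamma rays was 1.21 (limma adjusted p = 0.0018), and of thermal neutrons minus carbon ions 1.18 (limma adjusted p = 0.01). The other calls were STB3 higher and REB1 and TBF1 lower after fast neutrons, HMO1, CRF1 and SCH9 lower after thermal neutrons, and KOG1 and RPD3 lower after carbon ions.

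Dedicated chaperones escort single new ribosomal proteins to the assembling subunits. Of 12 measured, limma called none after fast neutrons (3 higher and 0 lower at an unadjusted p under 0.05), 2 higher and 1 lower after thermal neutrons, and 1 higher and 3 lower after carbon ions. After gamma rays 1 of 11 rose and 5 fell. Over all genes tested 19.9% were higher and 21.2% lower after thermal neutrons, 9.72% and 12% after carbon ions, and 17.6% and 22.4% after gamma rays, so the counts of higher chaperones were near or below the background. SQT1 (YIR012W), the chaperone of RPL10, was at -0.16 ± 0.15 after fast neutrons and 0.21 ± 0.26 after thermal neutrons, and fell after carbon ions (-0.50 ± 0.19, adjusted p = 0.024) and gamma rays (-0.87 ± 0.19, adjusted p = 6.0e-04). TSR2 (YLR435W), the chaperone of RPS26, fell after carbon ions (-0.72 ± 0.48, adjusted p = 0.021), where both RPS26 copies rose, and after gamma rays (-0.97 ± 0.42, adjusted p = 0.0022), where RPS26A fell. PUF6 (YDR496C), which escorts RPL43, had the lowest mean of the list after gamma rays (-1.13 ± 0.37, adjusted p = 0.0017). The other calls were NAP1 higher after thermal neutrons and carbon ions, YAR1 higher and SYO1 lower after thermal neutrons, RRB1 lower after carbon ions, and after gamma rays TSR4 higher and YAR1 and FAP7 lower. NAP1 was above 0 on all 12 arrays, so for it a dye effect cannot be told apart from a response. ACL4 (YDR161W), the chaperone of RPL4, named after its values were seen, averaged 0.11 ± 0.07, -0.02 ± 0.17, -0.24 ± 0.20 and 0.15 ± 0.09 after fast neutrons, thermal neutrons, carbon ions and gamma rays and passed in none.

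Factors bound to the working ribosome include SSZ1, ZUO1 and SSB2, chaperones that meet chains at the tunnel exit. Of 6 measured, 1 fell after fast neutrons, 3 fell after thermal neutrons, 1 rose and 1 fell after carbon ions, and limma called none after gamma rays (1 higher and 0 lower at an unadjusted p under 0.05). Over all genes tested 6.6% were lower after fast neutrons and 21.2% after thermal neutrons, and 9.72% were higher and 12% lower after carbon ions. SSZ1 (YHR064C) was at -0.88 ± 0.18 after fast neutrons (adjusted p = 0.017), -0.73 ± 0.37 after thermal neutrons (adjusted p = 0.004) and -0.69 ± 0.31 after carbon ions (adjusted p = 0.012), and passed after each. After gamma rays SSZ1 was at -0.29 ± 0.14 and did not pass (adjusted p = 0.17). Its differences from gamma rays did not pass by limma (adjusted p = 0.14 for thermal neutrons and 0.23 for carbon ions). SSZ1 was below 0 on all 12 arrays, so a dye effect cannot be told apart from a response, because no dyes were swapped. ZUO1 and SSB2 were lower after thermal neutrons (-0.45 ± 0.40, adjusted p = 0.038, and -0.54 ± 0.28, adjusted p = 0.0068). STM1 (YLR150W), which clamps idle ribosomes, rose after carbon ions (0.46 ± 0.22, adjusted p = 0.027).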

How the data were processed

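Poly(A) RNA of irradiated (Cy5) and control (Cy3) cells was hybridised to 12 two-colour arrays, per the labels. The deposited values are log2 ratios of irradiated over control, with LOWESS normalisation of spots of flag value 0, per the labels. The log base was read from the values, whose minimum is log2 of a ratio of 0.01, and the direction from the channel order in the labels. No dyes were swapped, so dye effects remain in each ratio against 0. Carbon ion, thermal neutron and fast neutron arrays were scanned at high and low laser power, and the authors' merged values were not used here. In the labels, dose rate and exposure time do not multiply to the stated gamma ray dose, and fast neutrons have 2 differing exposure times; doses were used as labelled.

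Of 6912 probes, 5446 carried 1 symbol and 1466 none in the table of thermal neutrons, carbon ions and gamma rays, and 5513 and 1399 in the fast neutron table; none carried several. Scans of an array, then probes of a gene, were averaged. Genes with values on all 3 arrays were tested against 0, two-sided, with limma 3.58.1 in R 4.3.3. Thermal neutrons, carbon ions and gamma rays shared 1 fit of 9 arrays, with contrasts between radiations, and fast neutrons were fitted alone. Simulated ratios with known shifts were used to check the fit. For thermal neutrons, carbon ions and gamma rays, p-values use the spread within radiations pooled over the arrays of their shared fit. They do not measure the SD printed beside a mean. For fast neutrons they use the spread of the 3 arrays. In both fits the spread was moderated across genes. The number of 3 arrays per radiation limits the precision. Replicate numbers did not pair arrays: residuals of same-numbered arrays correlated between -0.26 and 0.13 in 9 pairs.

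Values on every array are given for the 3 highest and 3 lowest members that passed with 1 sign per radiation, the 3 largest differences in each direction, the 3 widest A minus B gaps, members passing after thermal neutrons, carbon ions and gamma rays, RPP0 and ASC1; genes of other lists were named where they passed, apart from ACL4. Members and lists, the groups by place included, were chosen with earlier results of these data known. Other members were named for their place in the ribosome. No sequences or coordinates are given, because no build is named in the sources used here.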

Additional observations from a re-analysis of the deposited data

Results flagged for a closer look

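The differences between radiations that passed a limma contrast are listed here because the same comparison, irradiated over control, gave different values after different radiations. For carbon ions minus gamma rays 55 members passed, with RPS26A at 1.64, RPL36B at 1.27 and RPL11A at 1.24 the 3 largest. For thermal neutrons minus gamma rays 49 members passed. RPS23A at 1.23, RPL31A at 1.22 and RPL27A at 1.22 were the highest, and RPL4B at -0.867, RPL4A at -0.761 and RPP0 at -0.711 the lowest. For thermal neutrons minus carbon ions 2 members passed, RPS21A at -0.684 and RPS25A at -0.679. Waiting time, facility, dose, vessel, saline volume and scanning differed with the radiation and cannot be told apart from it.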

How the results depend on the processing

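No direction reversed under any alternative run, and among the values of single named genes 287 stayed on their side of the threshold and 36 no longer passed; those were RPL20A, RPL38, RPL4B, RPP2A and RPS10A after fast neutrons, RPP0 for thermal neutrons minus gamma rays, and RPS21A and RPS25A for thermal neutrons minus carbon ions. Called after all alternatives were 0 of 17 members for fast neutrons, 10 of 33 for thermal neutrons, 9 of 33 for carbon ions and 21 of 41 for gamma rays, and 32 of 49, 29 of 55 and 0 of 2 for thermal neutrons minus gamma rays, carbon ions minus gamma rays and thermal neutrons minus carbon ions. For fast neutrons 17 members passed in the reported fit, 0 with the high-power scans alone (limma; 27 higher and 4 lower at an unadjusted p under 0.05), 40 with the low-power scans alone, 27 after scaling arrays to 1 common spread, 8 with genes on at least 2 arrays, 67 with array weights, 45 with replicate 2 by its low-power scan alone (chosen after seeing the data), and 0 to 56 with 1 array left out. For carbon ions the 33 became 54 with arrays scaled, 61 with array weights, 19 when fitted alone, and 11 to 23 with 1 array left out; their median of 0.28 became 0.229 with the low-power scans. For thermal neutrons the count ranged from 14 to 24 with 1 array left out, and the median became 0.179 with arrays centred. For gamma rays the count ranged from 23 to 38, and the gap between subunits, taken over the members' means, from 0.036 to 0.143. With 1 array left out, 37 to 49 passed for thermal neutrons minus gamma rays, 31 to 46 for carbon ions minus gamma rays and 0 to 3 for thermal neutrons minus carbon ions; the last had 1 with the high-power scans, 4 with arrays scaled and 25 with array weights. With the replicate number as a block, which the pairing check gave no ground for, 28, 28 and 40 members passed for thermal neutrons, carbon ions and gamma rays, and 48, 47 and 1 for the 3 differences. Cause was not tested for any of these. Dye effects, the spread of only 3 arrays and probes that may not separate paralogs limit the precision of every ratio.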
